A study of Oryctolagus cuniculus with 12 samples.

Results

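Cells take up glucose and long-chain fatty acids through membrane proteins, and 3 of the genes that encode them were followed here in the ventricles of fetal rabbit hearts. SLC2A1 encodes GLUT1, a glucose transporter that is the main one of the fetal heart in mammals studied, and SLC2A4 encodes GLUT4, which insulin and muscle work bring from vesicles inside the cell to its surface. CD36 encodes a class B scavenger receptor that takes up long-chain fatty acids. Before birth the mammalian heart draws mostly on glucose and lactate, and fatty acids become its main fuel after birth, when GLUT4 and CD36 rise in rodents. All of this is background, and none of it was measured here.

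The members were chosen as every array probe whose current gene symbol is SLC2A1, SLC2A4 or CD36. They are 13 of 43603 probes, and 3 of the 591 genes that have a name here. SLC2A1 had 5 probes, SLC2A4 had 6 and CD36 had 2. The SLC2A4 probes carry the older name GLUT4 on the array and were matched through their transcript accession, while those of CD36 were matched through the symbol.

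Of the samples 6 came from fetuses with intrauterine growth restriction (IUGR), that is, with poor growth in the womb, and 6 from control fetuses. The labels join them into 6 pairs of 1 IUGR and 1 control sample. IUGR samples are titled as treatment, but the sources used here give neither the procedure nor the rabbit strain or fetal age. All samples are heart ventricles of fetal rabbits, snap frozen, with 500 ng of RNA per array and RNA integrity numbers from 9.3 to 9.9. The labels do not say what a pair shares or whether each sample is 1 fetus, so a p-value reflects the spread over the 6 pairs, part of which may be technical. Every sample had its own single-colour Agilent array, and its values are probe signals on the log2 scale, from 1.35 to 15.83.

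The arrays resembled each other, with a correlation of 0.957 to 0.978 between any 2 of them across probes. Of 14 cardiomyocyte markers, 3 had a named probe, and all 3 lay high in the table. MYH6, the alpha myosin heavy chain, averaged 14.9 log2, RYR2, the calcium release channel, 13.0, and CKM, the muscle creatine kinase, 15.6. NPPA, listed here as an atrial marker, ran from 9.49 to 15.79 over the 12 hearts. SLN and GJA5, the other genes of that list with a named probe, ran from 4.34 to 8.73 and from 7.67 to 8.71. The labels give ventricle for every sample, and the part of atrial tissue in these values was not tested. In heart tissue as a whole, fewer cells of a type and less RNA per cell cannot be told apart.

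The question was whether the genes for glucose and fatty acid uptake differ between growth-restricted and control hearts. Each was measured well above the median probe, and none differed by more than the spread between pairs. A difference is the log2 value of IUGR minus that of control, with its SD over n = 6 pairs, and the brightest probe of a gene, by its mean over the 12 arrays, stands for it first. SLC2A1 differed by 0.02 ± 0.33, SLC2A4 by 0.07 ± 0.31 and CD36 by 0.07 ± 0.24. All probes were tested together with limma, a linear model that shares the estimate of the spread across probes, with the pair as a block. Of the 13 member probes 0 passed an adjusted p of 0.05, as did 0% of the 43603 probes of the table. At an unadjusted limma p under 0.05 the members also counted 0, against 3.58% of all probes.

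SLC2A1, the glucose transporter with high basal activity, stood at 10.37, 10.81, 10.88, 10.48, 11.04 and 10.84 log2 in IUGR hearts of pairs 1 to 6, against 10.46, 11.25, 10.83, 10.50, 10.47 and 10.76 log2 in control hearts of the same pairs. The groups overlapped throughout, and the control heart of pair 2 was the highest of all 12 while the IUGR heart of pair 1 was the lowest. The means were 10.73 ± 0.26 in IUGR and 10.71 ± 0.31 in control hearts (SD, n = 6 each). The 12 hearts spanned 0.88 log2, or 1.85-fold, whereas the mean difference between the groups corresponds to 1.02-fold. Its 95% interval in limma ran from 0.80-fold to 1.28-fold, and the limma adjusted p was 0.992.

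Pair by pair, SLC2A1 was higher in IUGR in 3 pairs and lower in 3. The differences were -0.09, -0.44, 0.05, -0.02, 0.57 and 0.08 log2 in pairs 1 to 6. Pairs 2 and 5 stood out in opposite directions, and the other pairs stayed within 0.1 log2 of 0. Without pair 5 the mean turned to -0.08, and without pair 2 it was 0.12. An exact test over all sign changes of the 6 pairs gave p = 0.75, where the smallest p it can give is 0.03125.

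**Figure D1:**
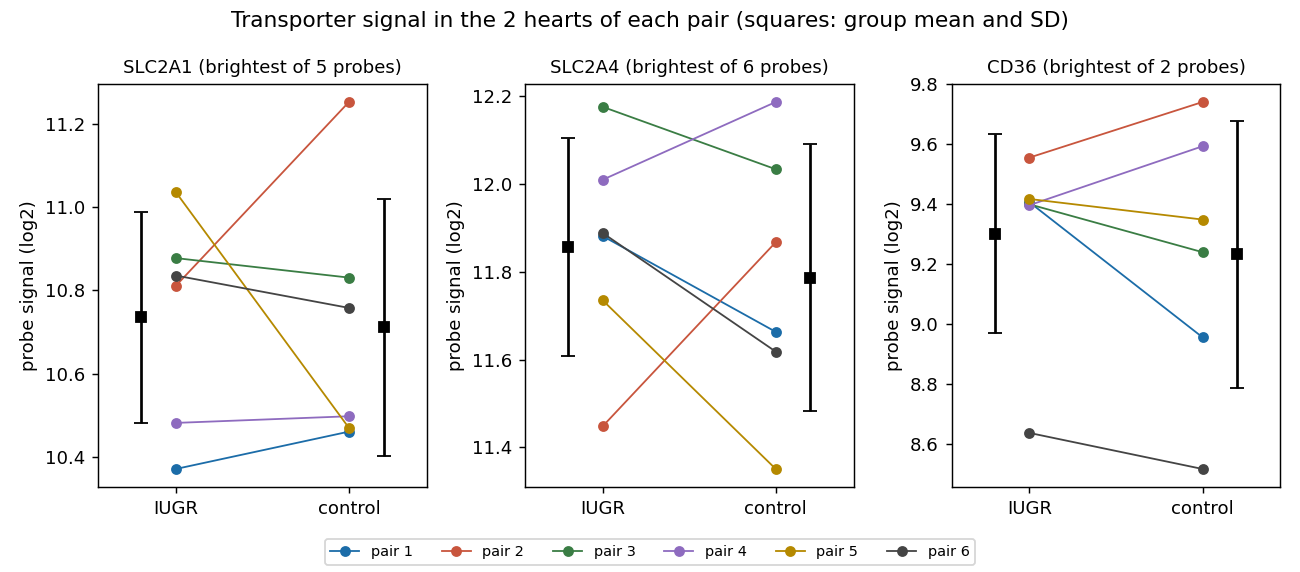
Probe signal on the log2 scale of the brightest probe of SLC2A1, SLC2A4 and CD36, with IUGR hearts on the left and control hearts on the right of each panel. Lines join the 2 hearts of a pair, black squares with bars are group means with their SD (n = 6), and the vertical axes do not start at 0. The groups overlap in all 3 panels, and both hearts of pair 6 lie lowest for CD36, at 8.64 in the IUGR and 8.52 in the control heart.

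The 5 SLC2A1 probes moved alike. Their mean differences ran from 0.0043 to 0.04, with SDs of 0.25 to 0.33, and over the 12 arrays, with the mean of each group taken out, they correlated with each other at 0.91 to 1.00. In pair 2 all 5 were lower in IUGR, with differences from -0.44 to -0.32. In pair 5 all 5 were higher, by 0.43 to 0.57. The large differences of these 2 pairs were therefore seen at every probe of the gene.

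Red blood cells also carry GLUT1 in some mammals, so red cell markers are set beside SLC2A1. Of 17 such markers, 3 had a named probe, the haemoglobin chains HBA and HBB2 and BPGM, an enzyme of red cell glycolysis. Their mean level ran from 13.87 to 14.50 in IUGR hearts and from 13.62 to 14.19 in control hearts. It was higher in IUGR in 6 of 6 pairs, by 0.03, 0.27, 0.29, 0.31, 0.31 and 0.13 log2 in pairs 1 to 6. HBA alone was also higher in 6 of 6 pairs, by 0.41 ± 0.31 (limma unadjusted p = 0.0224, adjusted p = 0.982). Of all probes, 2.25% had the same sign in 6 of 6 pairs. BPGM and HBB2 were each higher in 4 of 6 pairs, by 0.14 ± 0.26 and 0.12 ± 0.29 (limma unadjusted p = 0.303 and 0.391). The markers did not all go 1 way: in pair 2, HBA was higher in IUGR by 0.91 and BPGM by 0.25, while HBB2 was lower, with a difference of -0.35. HBB2 lay from 15.26 to 15.78, near the top of the scale. The part of red cells in the SLC2A1 values was not tested.

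The control heart of pair 2, the highest for SLC2A1, also stood apart in the liver marker APOB. Of 8 liver markers 2 had a named probe, AHSG and APOB. Their mean was 7.97 log2 in that heart, the highest of the 12, with the other 11 from 3.77 to 7.20. APOB stood at 8.07 there, with the other 11 hearts from 1.72 to 2.91, although only 1 of its 3 probes had the sign of its mean difference. AHSG did not stand apart in that heart, at 7.87, where the 12 hearts ran from 5.39 to 11.74. In pair 2 the liver mean differed by -4.20, the largest of the 6 pairs. The part of liver RNA in the transporter values of pair 2 was not tested, and the means without that pair are given beside each glucose transporter.

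SLC2A4, the insulin-responsive transporter, stood at 11.88, 11.45, 12.18, 12.01, 11.74 and 11.89 log2 in IUGR hearts of pairs 1 to 6. Control hearts of the same pairs had 11.66, 11.87, 12.03, 12.19, 11.35 and 11.62 log2. The highest and the lowest of all 12 were both control hearts, those of pairs 4 and 5, and the IUGR values lay between them. The means were 11.86 ± 0.25 in IUGR and 11.79 ± 0.30 in control hearts (SD, n = 6 each). The mean difference corresponds to 1.05-fold, with a 95% interval in limma from 0.84-fold to 1.31-fold and a limma adjusted p of 0.985.

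SLC2A4 was higher in IUGR in 4 of 6 pairs, and the exact test over sign changes gave p = 0.594. The differences were 0.22, -0.42, 0.14, -0.18, 0.38 and 0.27 log2 in pairs 1 to 6. Pair 2 was again the lowest and pair 5 the highest, as for SLC2A1. Leaving out pair 5 brought the mean to 0.01, and leaving out pair 2 to 0.17, both without a call.

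The 6 SLC2A4 probes fell into 5 that behaved alike and 1 that did not. The 5 brighter probes, with mean levels of 11.47 to 11.82 log2, correlated with each other at 0.87 to 0.98 over the 12 arrays, with the mean of each group taken out. The sixth (A_04_P059777), with a mean of 7.94, correlated with them at 0.33 to 0.49 and with the SLC2A1 probes at -0.48 to -0.38. All 6 are annotated to the same transcript accession, and the sources used here do not give where on the transcript each probe lies.

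In pair 2 the sixth probe was higher in IUGR by 0.43 log2, while the 5 others were lower, with differences from -0.46 to -0.26. In pair 3 it was lower, with a difference of -0.18, while the 5 others were higher, by 0.03 to 0.22. In pair 5 all 6 probes were higher in IUGR. The sixth probe had the largest mean difference of the 13 member probes, 0.18 ± 0.27 in 4 of 6 pairs, with an unadjusted limma p of 0.196 and an exact p of 0.188. It stood at 8.30, 7.95, 7.89, 7.99, 7.95 and 8.09 log2 in IUGR hearts of pairs 1 to 6, against 8.10, 7.53, 8.06, 8.06, 7.43 and 7.89 in control hearts. The 2 lowest values, 7.43 and 7.53, were those of the control hearts of pairs 5 and 2.

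**Figure D2:**
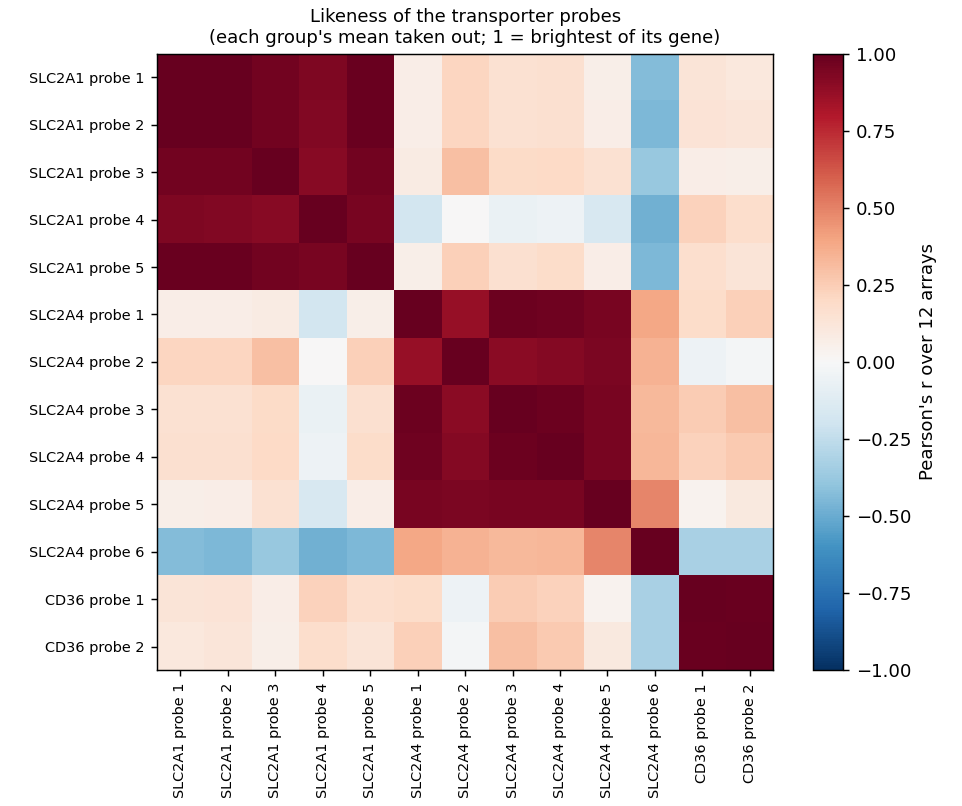
Pearson's r between the 13 transporter probes over the 12 arrays, with the mean of each group taken out, from -1 (blue) to 1 (red). Probes are numbered from the brightest of each gene. The 5 SLC2A1 probes, the 5 brighter SLC2A4 probes and the 2 CD36 probes form 3 red blocks, and SLC2A4 probe 6 stands outside, at 0.33 to 0.49 with the probes of its own gene.

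CD36, the fatty acid receptor, stood at 9.41, 9.55, 9.40, 9.40, 9.42 and 8.64 log2 in IUGR hearts of pairs 1 to 6, against 8.95, 9.74, 9.24, 9.59, 9.35 and 8.52 log2 in control hearts. Of the IUGR hearts 5 lay within 0.2 log2 of each other, and that of pair 6 lay far below them. The control hearts were spread more evenly, and that of pair 6 was the lowest of all 12. The means were 9.30 ± 0.33 in IUGR and 9.23 ± 0.44 in control hearts (SD, n = 6 each). The mean difference corresponds to 1.05-fold, with a 95% interval in limma from 0.86-fold to 1.28-fold and a limma adjusted p of 0.984.

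CD36 was higher in IUGR in 4 of 6 pairs, and the exact test over sign changes gave p = 0.562. The differences were 0.45, -0.19, 0.16, -0.20, 0.07 and 0.12 log2 in pairs 1 to 6. Pair 1 had the largest difference, and without it the mean turned to -0.01. The second CD36 probe correlated with the first at 0.99 and differed by 0.09 ± 0.24, with 0.50 in pair 1 and 0.06 in pair 6.

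The spread of CD36 between hearts was larger than that between the groups. Over the 12 hearts it spanned 1.22 log2, or 2.33-fold, the widest range of the 3 genes by their brightest probe. Both hearts of pair 6 were low, so their difference of 0.12 log2 was small. CD36 is also made by endothelium, macrophages, platelets and fat cells. Of the endothelial markers 2 of 12 had a named probe, KDR and VWF, and their mean was 5.28 and 4.75 in the IUGR and control hearts of pair 6, with the other 10 hearts from 3.58 to 4.90. The macrophage marker CD14, the only 1 of 9 with a named probe, was at 7.21 in the IUGR and 7.86 in the control heart, with the others from 7.17 to 8.63. The 2 of 6 platelet markers, ITGA2B and ITGB3, averaged 7.54 in the IUGR and 7.57 in the control heart, with the others from 7.09 to 7.94. The mean difference of ITGB3, -0.01, had that sign at only 1 of its 5 probes. The 3 cardiomyocyte markers averaged 14.54 in the IUGR and 14.55 in the control heart of pair 6, with the others from 14.31 to 14.62. None of the 6 fat cell markers had a named probe. Each of these lists rests on 1 to 3 genes, VWF was dim, with a mean of 3.00, and CD14 was at its lowest IUGR value in pair 6. The part of these cell types in the CD36 values of pair 6 was not tested. Over all pairs, KDR was higher in IUGR in 6 of 6, by 0.43 ± 0.30 (limma unadjusted p = 0.0169, adjusted p = 0.982). Of all probes, 2.25% had the same sign in 6 of 6 pairs. VWF was higher in 4 of 6 pairs, by 0.12 ± 1.13. The part of endothelium in the CD36 differences was not tested either.

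**Figure D3:**
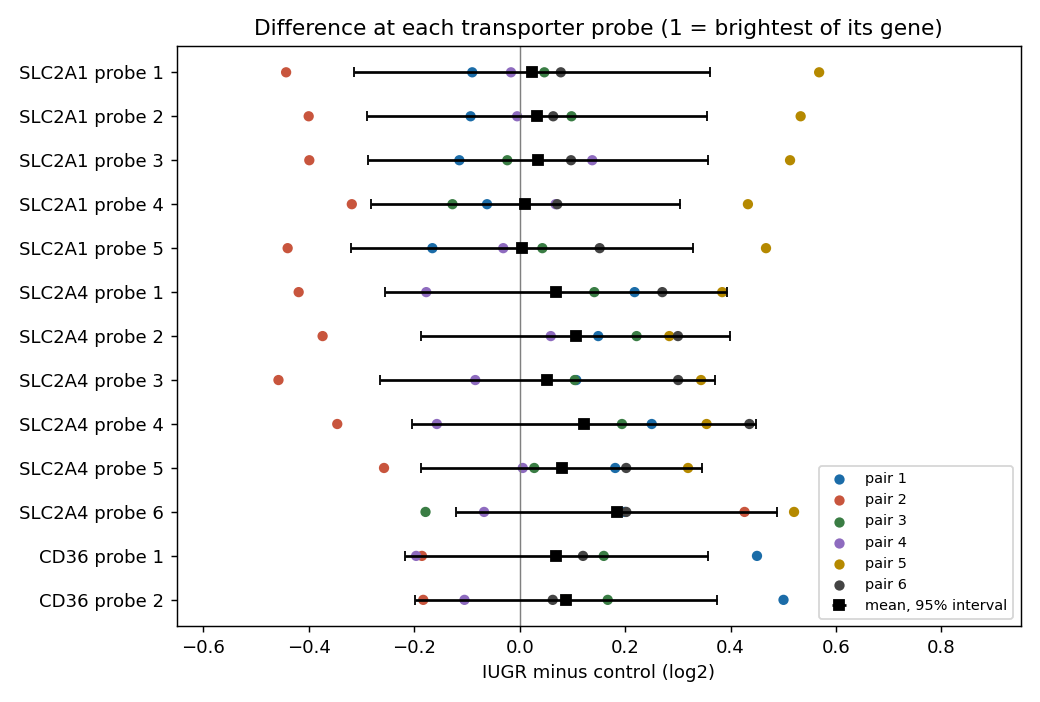
IUGR minus control in log2 units at each of the 13 transporter probes, numbered from the brightest of its gene. Coloured points are the 6 pairs, and black squares with bars are the mean and its 95% interval in limma. All 13 intervals include 0, and pair 5 lies to the right and pair 2 to the left for every SLC2A1 probe.

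All 13 probes had a mean difference above 0, from 0.0043 to 0.18 with a median of 0.07, while 52% of all probes were above 0 and their median was 0.01. Probes of 1 gene share their transcript, so these 13 are 3 observations. For all 13 the IUGR and control values overlapped. Groups that do not overlap were seen for 0.0505% of all probes. The same sign in all 6 pairs occurred for 0 of the 13 member probes and for 2.25% of all probes.

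The spread of the pair differences of the brightest SLC2A1 probe, 0.33, lay above that of 74.8% of the 1807 probes within 0.5 log2 of its level, whose median was 0.23. For SLC2A4 the figure was 75.4% of 1144 probes, with a median of 0.22, and for CD36 48.6% of 2762 probes, with a median of 0.24. These are descriptions of this table. Over all probes of a gene, the lowest and the highest limit of any 95% interval were 0.80-fold and 1.28-fold for SLC2A1. They were 0.83-fold and 1.40-fold for SLC2A4, and 0.86-fold and 1.30-fold for CD36. The 2 limits of a gene come from different probes. With 6 pairs, changes within these limits are not excluded.

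Over the 6 pairs, the differences of SLC2A1 and SLC2A4 correlated with a Pearson's r of 0.81 (exact permutation p = 0.0375, adjusted p = 0.113 over 3 relations) and a Spearman's rho of 0.83 (exact permutation p = 0.0583, adjusted p = 0.175). Of all other probes, 2.45% had at least this r with SLC2A1. Without pairs 2 and 5, the farthest from the median, r was 0.20 over 4 pairs. Taking out the extreme pairs narrows the range, so this value cannot show what the relation rests on. Leaving out 1 pair gave 0.59 to 0.89.

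For SLC2A4 and CD36 the pair differences gave an r of 0.71 (exact permutation p = 0.114, adjusted p = 0.171) and a rho of 0.43 (exact permutation p = 0.419, adjusted p = 0.629). The r was -0.44 without pairs 2 and 4. For SLC2A1 and CD36, r was 0.23 (exact permutation p = 0.722, adjusted p = 0.722) and rho 0.09 (exact permutation p = 0.919, adjusted p = 0.919), with r at -0.39 without pairs 2 and 5. None of the 3 relations passed after adjustment. By their brightest probes, all 3 genes were lower in IUGR in pairs 2 and 4. In pairs 3, 5 and 6 all 3 were higher by the same probes. The other probes did not all follow. In pair 4, SLC2A1 was above 0 at 2 of its 5 probes and SLC2A4 at 2 of its 6. In pair 3, SLC2A1 was above 0 at 3 of 5 probes and SLC2A4 at 5 of 6, and in pair 2 SLC2A4 at 1 of 6.

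**Figure D4:**
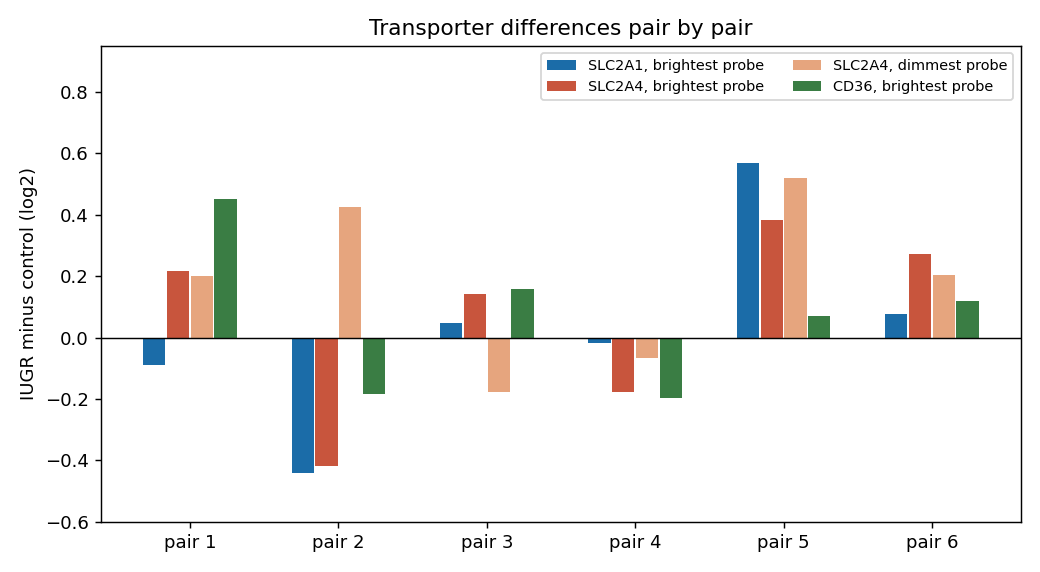
IUGR minus control in log2 units in each pair, for the brightest probe of SLC2A1, SLC2A4 and CD36 and for the dimmest SLC2A4 probe. In pair 2 the brightest probes of the 3 genes lie below 0, at -0.44, -0.42 and -0.19, while the dimmest SLC2A4 probe lies at 0.43, and in pair 5 all 4 bars lie above 0.

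The levels of the 3 genes were also compared across hearts. Over the 12 arrays, with the mean of each group taken out, the brightest probes of SLC2A1 and SLC2A4 correlated at 0.06, those of SLC2A1 and CD36 at 0.13 and those of SLC2A4 and CD36 at 0.18. These are descriptions, and the 12 arrays come in 6 pairs. Among 590 other named genes, SLC2A4 held place 200 in likeness to SLC2A1 and CD36 held place 164.

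Whether partners of a pair resembled each other was read from the IUGR and control levels over the 6 pairs. For CD36 Pearson's r was 0.85 (exact permutation p = 0.0222, adjusted p = 0.0667 over 3 relations) and rho was 0.60 (exact permutation p = 0.242, adjusted p = 0.446). Without pairs 2 and 6, the farthest from the median, r was -0.28, a value with the same limit. Leaving out 1 pair gave an r of 0.64 to 0.95. For SLC2A1 r was 0.34 (exact permutation p = 0.54, adjusted p = 0.54) and rho 0.26 (exact permutation p = 0.658, adjusted p = 0.658), with r at -0.84 without pairs 1 and 4. For SLC2A4 r was 0.40 (exact permutation p = 0.446, adjusted p = 0.54) and rho 0.54 (exact permutation p = 0.297, adjusted p = 0.446), with r at 0.96 without pairs 2 and 3.

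By the same measure over the 12 arrays, the named genes most like SLC2A1 were PTGR1, a prostaglandin reductase, with r = 0.78, SLC22A2, an organic cation transporter, with 0.77, and SHBG, which binds sex hormones, with 0.77. Leaving out 1 pair kept all 3 between 0.70 and 0.89. SLC22A2 and SHBG were dim, with means of 2.74 and 2.79 log2. The genes most like SLC2A4 were CLCN7, a lysosomal chloride transporter, with r = 0.84, EDNRA, an endothelin receptor, with 0.84, and PRL, prolactin, with 0.81, and these stayed between 0.74 and 0.93 when 1 pair was left out.

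For CD36 the most like genes were CACNA2D1, a calcium channel subunit, with r = 0.80, AOAH, which inactivates bacterial lipopolysaccharide, with 0.78, and KCNK10, a potassium channel, with 0.72. KCNK10 was dim, with a mean of 3.19 log2. CACNA2D1 stayed between 0.76 and 0.85 when 1 pair was left out, while AOAH ran from 0.18 to 0.93. From 0.126% to 0.589% of all probes were at least as like their member as these 9 genes. The 9 were chosen for their likeness, so no test is given.

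Of 115 genes in 6 lists of substrate uptake and use, 11 had a named probe, the 3 transporters and 8 others. No member of the lists for fatty acid oxidation and for the insulin and AMPK control of transporter traffic had one, so the machinery that moves GLUT4 to the surface was not analysed here. Of the 8 other genes 0 passed the adjusted threshold in limma, 0 had an unadjusted limma p under 0.05, and 4 lay above 0 and 4 below. The unadjusted count was 3, namely VLDLR, BSG and LDHA, with an intensity trend and robust prior and again without pair 4, and the adjusted count stayed 0 in both. The median difference of the 8 other genes was -0.00048 in the main fit.

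Among glucose carriers, SLC2A5, the fructose transporter GLUT5, and SLC5A2, a kidney sodium-glucose cotransporter, each had 1 dim probe. SLC2A5 averaged 3.09 ± 0.86 log2 in IUGR and 3.14 ± 0.88 in control hearts. SLC5A2 averaged 3.67 ± 0.90 in IUGR and 4.02 ± 0.93 in control hearts, with a difference of -0.35 ± 1.07 that turned to 0.06 without pair 2. Both lay below the median probe of the table, at 4.61 log2.

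Of the genes of fatty acid uptake, CAV1 encodes the caveola protein caveolin, and VLDLR takes up triglyceride-rich lipoproteins. VLDLR averaged 10.81 ± 0.17 log2 in IUGR and 10.54 ± 0.27 in control hearts, with a difference of 0.27 ± 0.27 in 5 of 6 pairs and the same sign at all 4 of its probes (limma adjusted p = 0.982, exact p = 0.0938). CAV1 averaged 13.72 ± 0.24 in IUGR and 13.83 ± 0.13 in control hearts, with a difference of -0.11 ± 0.32 that was 0.01 without pair 2. SCARB1, a relative of CD36 that was added after the annotation had been read, differed by -0.11 ± 0.22 and had that sign at all 5 of its probes (limma adjusted p = 0.982).

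The remaining genes were HIF1A and those of lactate handling. HIF1A, the oxygen-regulated factor that raises SLC2A1 transcription in many cells, averaged 8.54 ± 0.21 log2 in IUGR and 8.77 ± 0.48 in control hearts, and it was higher in IUGR in 1 of 6 pairs. BSG, basigin, a partner of the lactate transporters, differed by 0.24 ± 0.28 in 5 of 6 pairs. LDHA, which makes lactate, differed by 0.40 ± 0.51 in 5 of 6 pairs, and LDHB by 0.05 ± 0.27. Each had a limma adjusted p of at least 0.982. LDHB lay from 15.22 to 15.80, just under the top of the scale (15.83), where a change is hard to measure.

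In pair 2, where SLC2A1, SLC2A4 and CD36 were lower in IUGR, the other genes went both ways. LDHA was higher in IUGR there by 0.75 log2, VLDLR by 0.68, BSG by 0.47, SLC2A5 by 0.25 and LDHB by 0.02. SLC5A2, HIF1A, CAV1 and SCARB1 were lower, with differences of -2.42, -0.73, -0.72 and -0.28.

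**Figure D5:**
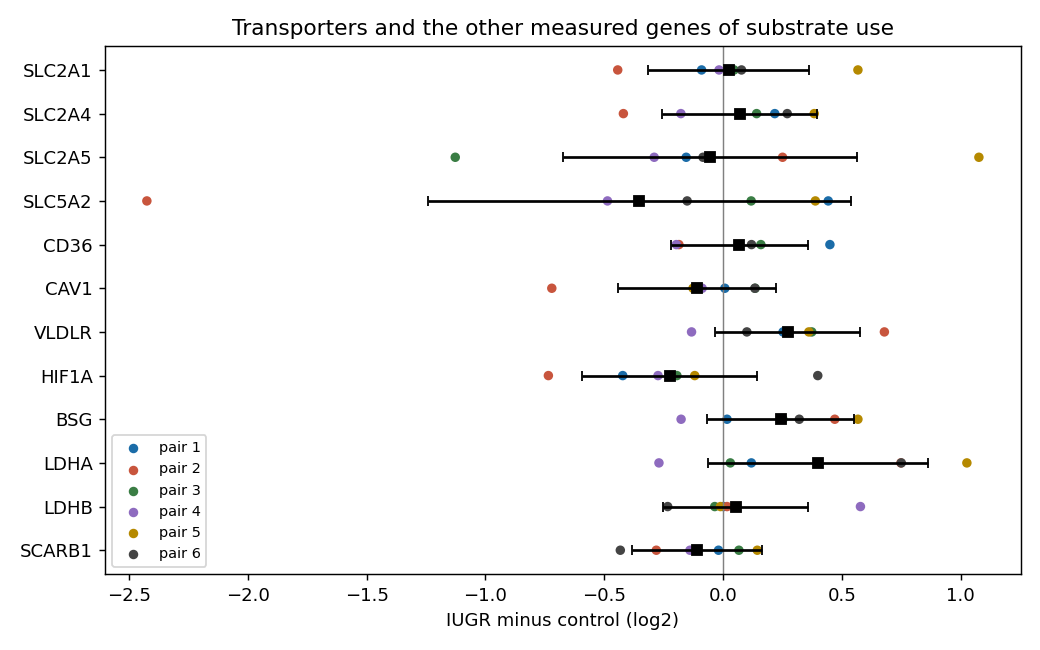
IUGR minus control in log2 units for the 3 transporters, the 8 other measured genes of substrate uptake and use, and SCARB1, each by its brightest probe. Coloured points are the 6 pairs, and squares with bars are the mean and its 95% interval in limma. All 12 intervals include 0, with that of LDHA reaching from -0.06 to 0.86 and that of CD36 from -0.22 to 0.36.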

How the data were processed

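Fetal rabbit heart ventricles were measured on single-colour Agilent arrays, 1 per sample. The deposited values are log2 probe signals. RMA was run by the authors, per the submitters' processing notes, without a stated version. Base 2 was read from the highest value, 15.83, or 58146 on a linear scale. The sorted arrays differed by at most 0.13 log2, so they share 1 distribution, and a shift common to most probes cannot be seen. The sources used here do not give the scanner software, background method or detection flags. The table holds 43603 probes of the 43803 sequences in the labels, of which 41930 are unnamed here. Names were updated with RefSeq through 1402 accessions, 238 symbols and 33 synonyms, and no coordinates or sequences are given.

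Values were used as deposited, without a filter. limma 3.58.1 in R 4.3.3 (lmFit, eBayes, two-sided) was fitted to all probes with the pair as a block, as the series' design text calls the samples paired, with Benjamini-Hochberg adjustment over 43603 probes and a threshold of 0.05. Deviations from the group means correlated within pairs at 0.129 to 0.254, with a mean of 0.166, and 12 of 12 arrays correlated best with their partner. The mean between pairs, -0.033, is nearly fixed by the mean within pairs, as deviations sum to 0 within a group. The code of the fit was checked on simulated data with independent noise and no pair effect. The differences added there were larger than those of the transporters, so the check does not bear on these. Exact two-sided tests ran over all sign changes or all pairings of the 6 pairs (Python 3.11.15). Precision is limited by the number of arrays, and the median standard error was 0.191 log2. Genes were named by a rule: every member probe, each measured gene of the 6 lists, and the 3 named genes most like each member. The members and lists were chosen with earlier results of these data known. Alternatives left out the block, centred or quantile-normalised the arrays, dropped dim probes, changed the prior or the test, averaged probes, or left out a pair.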

Additional observations from a re-analysis of the deposited data

Results flagged for a closer look

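The 12 values of each member probe and of the other genes of substrate use were searched, by Dixon's criterion, for a heart far from the rest of its group. Of 44 groups 5 had one, where chance gives about 2.2, or 1 in 20. Probes of 1 gene are not independent, and the genes were chosen with results known, so no excess is read from this.

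In IUGR replicate 6, CD36 stood at 8.64 log2 with the other IUGR hearts from 9.40 to 9.55, and its second probe gave 8.24 where the rest had 8.95 to 9.12. These are 2 readings of 1 gene in 1 heart. Without pair 6 the CD36 difference was 0.06, as against 0.07 with it. CAV1 in IUGR replicate 2 stood at 13.27, with the other IUGR hearts from 13.67 to 13.90. LDHB was low in IUGR replicate 6, at 15.46 where the remaining IUGR hearts had 15.73 to 15.80. It was also low in control replicate 4, at 15.22 where the remaining controls had 15.69 to 15.78. No cause was tested.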

How the results depend on the processing

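No probe passed the adjusted threshold in limma or the ordinary paired test under any alternative (lowest adjusted p = 0.897), including the fit with no replicate block, which changed no call of a transporter. The probes with an unadjusted p under 0.05 numbered 1562, with 857 under no replicate block, 624 without probes below the median level, and 1443 to 1980 on leaving out a pair. Dropping probes leaves fewer to count, and the cause of the other shift was not tested. SLC2A1, at 0.02, lay between -0.08 (without pair 5) and 0.12 on leaving out a pair and from 0.02 to 0.04 otherwise. SLC2A4, at 0.07, ran from 0.01 to 0.17, and from 0.07 to 0.10 otherwise; its 0.09 over the 5 brighter probes was chosen after seeing the data. CD36, at 0.07, ran from -0.01 (without pair 1) to 0.12, and from 0.07 to 0.08 otherwise. Leaving out the block, dropping dim probes, or changing the prior or the test cannot move a mean difference over complete pairs. The ranges given as otherwise therefore rest on centring, quantile normalization and the probe averages, and the arrays already shared a distribution. Signs also turned for the dimmer SLC2A1 probes without pair 5 (-0.06, -0.07, -0.07 and -0.09) and for 2 of them without pair 3, 4 or 6 (-0.0035, -0.0006, -0.0013 and -0.03), for SLC2A4 probe 3 without pair 5 (range -0.01 to 0.15), for SLC2A5 without pair 3 (-0.28 to 0.16), for SLC5A2 and CAV1 without pair 2 (-0.51 to 0.06 and -0.16 to 0.01) and for LDHB without pair 4 (-0.05 to 0.11). Of the 8 other pathway genes, 0 had an unadjusted p under 0.05, against 3 with an intensity trend and robust prior, 3 without pair 4 and at most 1 under the other settings; the cause was not tested.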
